A study of Mus musculus with 24 samples.

Results

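The genes described here are 38 microglial genes, 19 of the homeostatic set that resting microglia express and 19 of the disease-associated set that reactive microglia express. They were named by symbol from general knowledge of microglia, with earlier results of these data known. All 38 were found among the 43430 genes of the count table. Of these, 37 had enough reads to be tested, 19 of 19 homeostatic and 18 of 19 disease-associated, among 15300 genes tested in all. The exception was Itgax. The tissue was whole cerebellum from 24 mice aged about 7 weeks, with 1 polyA-selected library per mouse and, in each of 4 genotype groups, 3 males and 3 females. The groups are labelled cKO, cKO+NDI1, Cre control and NDI1 control. In the study's terms cKO is a mouse model of complex I dysfunction in brain mitochondria. NDI1 is the yeast enzyme that regenerates NAD+ from NADH but, unlike complex I, pumps no protons, and it is present in NDI1 control without the knockout and in cKO+NDI1 with it. The labels do not give the deleted gene, the driver of Cre, the alleles of the controls or the strain. As background, the published model deletes Ndufs4, a complex I subunit, with Cre under the Nestin promoter, which acts in the neural lineage, and microglia do not descend from that lineage.

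Microglia are the resident macrophages of the brain. They depend on signals through the receptor Csf1r and hold a surveying state marked by purinergic receptors (P2ry12), Tmem119 and the fractalkine receptor Cx3cr1. When the receptor Trem2 and its adaptor Tyrobp sense lipids or debris, microglia around plaques, damaged myelin or dying neurons can take up a state known as disease-associated, with high Cst7, Clec7a, Itgax, Lpl, Spp1 and Apoe and lower homeostatic genes. Several genes of that state (Apoe, Cd9, Cd63, the cathepsins, Spp1) are also made by other brain cells, so in whole tissue their level is not a microglial level. In bulk tissue, fewer cells of a type and less RNA per cell cannot be told apart.

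Promoter sequences are shown for the members on which the comparisons below turn: Cst7 and Clec7a, which stood highest in the knockout groups, and C1qb and C1qc, a pair of complement genes that varied together. The windows are the 250 bases before the gene's start in RefSeq on the mouse build GRCm38.p6, written 5′ to 3′ on the gene's strand. Capitals mark GAGGAA (or TTCCTC, its reverse complement), the core of many sites of PU.1, the factor that defines the macrophage lineage, and in Clec7a also GGAANNGAA on the reverse strand, a composite of PU.1 and an interferon regulatory factor.
Cst7, chr2:150570165-150570414 (+): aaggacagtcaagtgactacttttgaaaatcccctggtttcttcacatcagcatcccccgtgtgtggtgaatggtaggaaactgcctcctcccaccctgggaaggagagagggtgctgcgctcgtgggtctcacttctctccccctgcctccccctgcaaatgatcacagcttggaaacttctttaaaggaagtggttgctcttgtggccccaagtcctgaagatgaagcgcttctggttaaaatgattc
Clec7a, chr6:129472780-129473029 (-): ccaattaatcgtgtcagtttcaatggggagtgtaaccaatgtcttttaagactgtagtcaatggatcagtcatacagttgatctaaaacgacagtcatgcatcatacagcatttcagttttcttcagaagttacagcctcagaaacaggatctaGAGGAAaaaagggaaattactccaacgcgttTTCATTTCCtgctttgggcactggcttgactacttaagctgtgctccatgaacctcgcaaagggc
C1qb, chr4:136886201-136886450 (-): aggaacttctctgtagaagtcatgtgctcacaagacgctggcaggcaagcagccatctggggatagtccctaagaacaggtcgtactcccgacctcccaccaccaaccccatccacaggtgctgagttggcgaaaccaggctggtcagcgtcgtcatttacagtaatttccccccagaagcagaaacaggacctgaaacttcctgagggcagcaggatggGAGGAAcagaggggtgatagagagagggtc
C1qc, chr4:136892915-136893164 (-): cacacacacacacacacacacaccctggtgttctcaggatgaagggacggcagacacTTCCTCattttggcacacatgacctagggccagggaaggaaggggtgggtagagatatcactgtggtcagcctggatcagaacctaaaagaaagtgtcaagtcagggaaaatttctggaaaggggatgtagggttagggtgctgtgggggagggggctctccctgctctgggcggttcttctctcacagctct
A promoter window was matched for 30 of the 38 members, and the motifs were searched on both strands of every window. GAGGAA lay in 16 of 30 members (53.3%), 8 of 14 homeostatic and 8 of 16 disease-associated, against 25.9% of 27025 genes with a window. The longer GAGGAAGT, whose matches are also matches of GAGGAA, lay in 2 of 30 members (6.67%, against 2.79%). GGAANNGAA lay in 2 of 30 (6.67%, against 8.01%), and the E-box CACGTG, bound by lysosomal regulators such as TFEB, in 3 of 30, against 6.86% of genes. The Cst7 window held none of these letters. A match is a run of letters and was not tested as a binding site.

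The smallest library held 7584374 counts and the largest 19785264, and the cKO group had the lowest mean (11620000). Ndufs4, the gene deleted in the published model, averaged 134 ± 23.6 CPM (normalised read counts, scaled to the library size; SD, n = 6) in Cre control, 144 ± 41.8 in NDI1 control, 95.4 ± 21.5 in cKO and 101 ± 15.1 in cKO+NDI1, and the groups overlapped; counts over the whole gene do not isolate the deleted part. The noncoding RNA of the Rosa26 locus, a common site for transgenes, lay at 5.66 to 9.50 CPM in all 12 libraries labelled with NDI1 and at 23.8 to 47.7 in the other 12. Among other cells that share genes with microglia, the summed level of 11 border macrophage markers spanned 24.8 to 29.7 CPM in Cre control, 24.4 to 30.6 in NDI1 control, 21.5 to 28.7 in cKO and 20.5 to 33.7 in cKO+NDI1. That of 10 markers of monocytes, neutrophils and lymphocytes spanned 5.26 to 15.7, 4.23 to 10.1, 3.42 to 10.9 and 5.03 to 20.8 CPM. The monocyte genes Ccr2 and Ly6c2 had 149 and 52 counts in all 24 libraries together. Astrocyte and Bergmann glia markers summed to 5287 CPM in Cre control and 4717 in cKO, and oligodendrocyte markers to 12277 in Cre control, 9972 in NDI1 control, 12827 in cKO and 9115 in cKO+NDI1. Their part in the values below was not tested.

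All defining microglial genes were present in every group. Per kilobase of merged exons, the homeostatic complement genes led, with C1qa at 36.0 ± 6.08 CPM per kb and C1qb at 30.3 ± 5.77 in Cre control (SD, n = 6), beside the cathepsin Ctss at 31.5 ± 3.89, 3 levels within 1 SD of each other. Csf1r stood at 6.38 ± 0.336 CPM per kb, P2ry12 at 6.02 ± 0.646, Tmem119 at 5.07 ± 0.676 and Cx3cr1 at 4.55 ± 0.347. Among the disease-associated genes Apoe, the lipid carrier that astrocytes also make, was highest of all members at 919 ± 157 CPM per kb, followed by the lysosomal proteases Ctsd (203 ± 21.1) and Ctsb (167 ± 15.6). The lowest of all members were Clec7a at 0.378 ± 0.163 CPM per kb, Gpnmb at 0.320, Lpl at 0.188 ± 0.0431, Cst7 at 0.0947 ± 0.111 and Itgax at 0.0618 ± 0.0321, and Cst7 and Itgax did not differ beyond their spread.

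**Figure D1:**
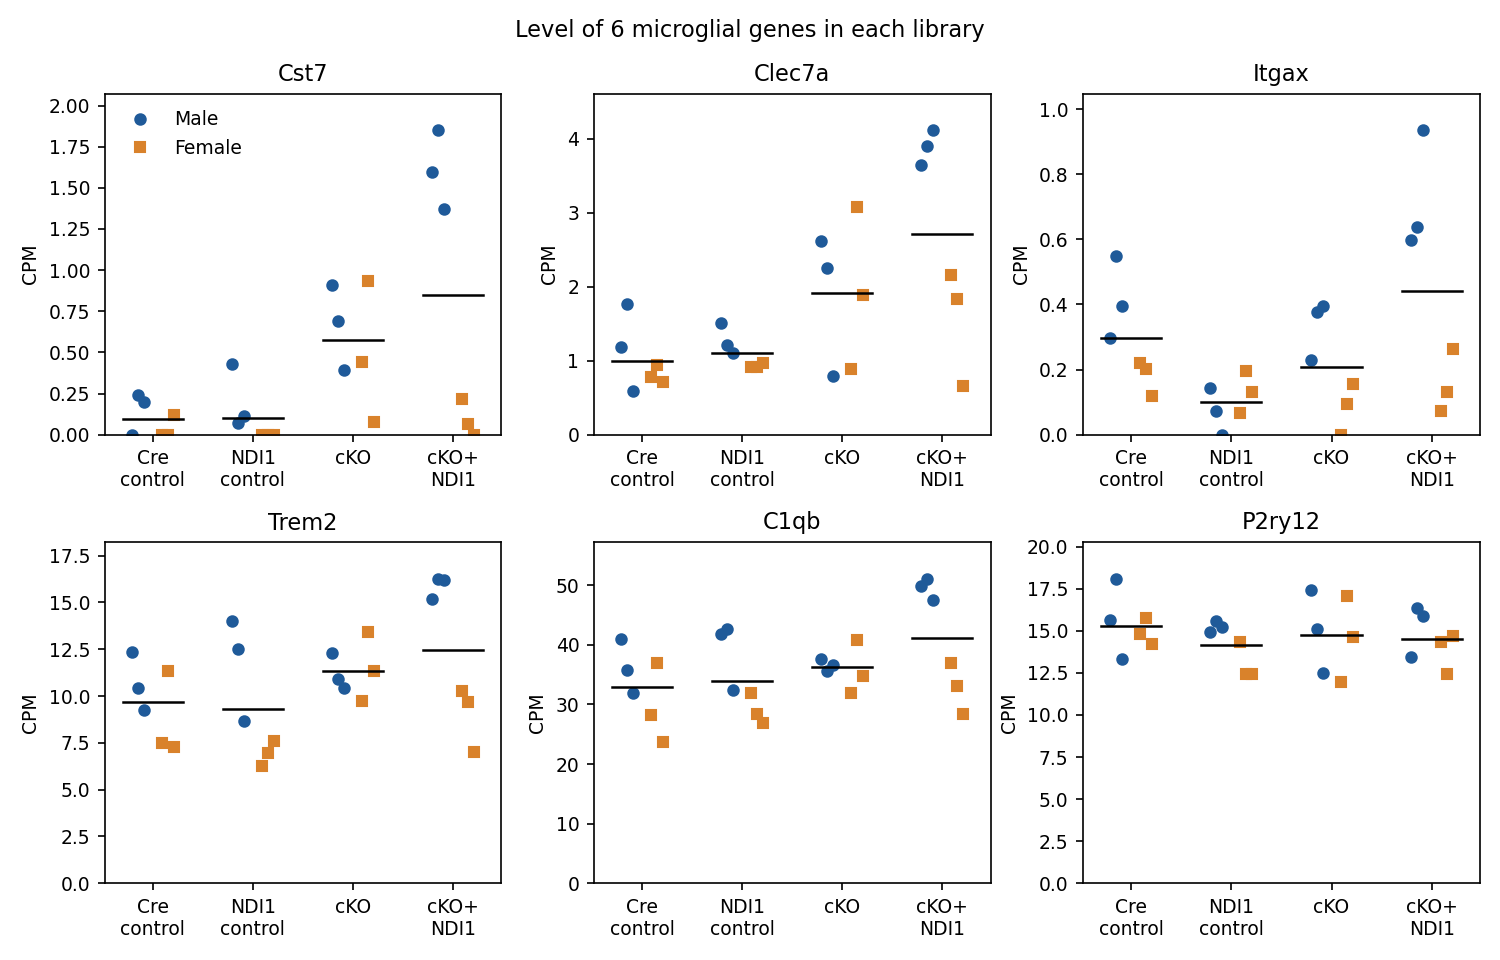
Level in CPM (y axis, linear, from 0) of 6 microglial genes in each of the 24 libraries, by genotype group (x axis); circles are males, squares females, and the line is the mean of the 6 libraries of a group. The 3 cKO+NDI1 males hold the highest Cst7 (1.37 to 1.85 CPM) and Clec7a (3.64 to 4.12 CPM), while P2ry12 lies between 11.95 and 18.1 CPM in all groups.

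The first comparison asks what the knockout changed without NDI1. In cKO against Cre control, Cst7, which encodes cystatin F, an inhibitor of lysosomal cysteine proteases, was called higher, and Ctsb, which encodes the protease cathepsin B, fell slightly. Cst7 was in the test only through the knockout libraries in which it was high, so its call is no independent support, and without the filter on low counts it was not called. These were 2 of 37 members called at an adjusted p under 0.05, 1 higher and 1 lower, against 4.87% of all genes tested (3.06% higher and 1.81% lower). An unadjusted p under 0.05 was found for 7 of 37 members, against 18.5% of all genes. The other 35 did not pass, among them all 19 homeostatic genes, of which 2 had an unadjusted p under 0.05. DESeq2 called 5 members (Clec7a, Cst7, Ctsb, Itgam and Lgals3) and limma-voom 2. Here and below, the shares of all genes are those of edgeR. The shares called by DESeq2 and limma-voom are not reported here, so their member counts have no background beside them. The median log2 fold change was 0.06 over the homeostatic and 0.02 over the disease-associated genes, beside -0.01 over all genes tested.

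Cst7 was a gene of few reads. Its counts were 0, 4 and 3 in the Cre control males and 0, 0 and 2 in the females, and 8, 11 and 5 in the cKO males and 4, 10 and 1 in the females. Over each group that is 9 counts against 39, or 0.0949 CPM (95% exact Poisson interval 0.0434 to 0.180) against 0.558 (0.397 to 0.763), intervals that cover counting error only. Of the cKO libraries 5 stood above every Cre control library, and cKO F3, at 0.0786 CPM, lay inside the Cre control range, so the groups overlapped.
The log2 fold change was 2.46 (SE 0.72, adjusted p = 0.0486, edgeR), and exchanging the 2 genotypes among mice of the same sex in all 400 ways (exact permutation test of CPM, two-sided) gave p = 0.01, adjusted p = 0.05 over 10 such tests, where 0.005 is the smallest possible. The call was near its threshold: it held in 6 of 24 fits that left out 1 library (Cre control F3, NDI1 control M1, cKO+NDI1 F2 or F3, cKO M3 or F3), with log2 fold changes from 1.996 to 2.77, and was lost in the other 18. For the filter on low counts, 3 cKO and 3 cKO+NDI1 libraries reached the 0.664 CPM asked of 6 libraries, and 0 of the control libraries did.

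Ctsb lay between 887 and 1145 CPM in Cre control, with a median of 1013, and between 858 and 901 in cKO, with a median of 867. Only the lowest Cre control library fell within the cKO range, and the cKO libraries lay close together. The log2 fold change was -0.21 (SE 0.06, adjusted p = 0.0387, edgeR). The call was lost in 8 of 24 fits without 1 library (Cre control M1, M2, F1 or F2, cKO M1, M2, M3 or F1), with values of -0.24 to -0.18. Neurons and astrocytes also make Ctsb, and 12.8% of its exon bases overlap Fdft1 on the other strand, whose reads cannot be told apart in an unstranded library.

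Among the surface receptors, Clec7a (Dectin-1, a receptor for fungal glucans) had a median of 0.856 CPM in Cre control, within 0.591 to 1.77, and of 2.07 in cKO, within 0.789 to 3.08. The cKO libraries M1, M2, F2 and F3 lay above all Cre control libraries, and M3 and F1 among them. Its log2 fold change of 0.95 (SE 0.33) did not pass (adjusted p = 0.0945, edgeR; exact permutation p = 0.055, adjusted 0.0917), with a range of adjusted p over the alternative settings of 0.0177 (without cKO M3) to 0.393 and a call by DESeq2. The receptor Trem2 had a median of 9.84 CPM in Cre control and 11.1 in cKO, and its adaptor Tyrobp a log2 fold change of 0.05 (SE 0.17, adjusted p = 0.921). For Trem2 the value was 0.25 (SE 0.16, adjusted p = 0.448). The Fc receptor Fcgr3 spanned 6.14 to 9.82 CPM in Cre control and 6.86 to 13.2 in cKO (log2 fold change 0.37, adjusted p = 0.230), and its highest library was cKO F1. Axl, a receptor for apoptotic cells, gave 0.08 (SE 0.07, adjusted p = 0.635). Itgax, the integrin CD11c, had 28 counts in Cre control, 9 in NDI1 control, 16 in cKO and 42 in cKO+NDI1, or 0.295, 0.0987, 0.229 and 0.475 CPM over each group.

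Secreted and lipid-handling members did not pass in this comparison. Spp1 (osteopontin) had a log2 fold change of -0.13 (SE 0.16, adjusted p = 0.739), Apoe of -0.06 (SE 0.10, adjusted p = 0.831), Lpl, a lipoprotein lipase, of -0.07 (SE 0.22, adjusted p = 0.914) and Csf1, a ligand of Csf1r, of 0.01 (SE 0.11, adjusted p = 0.968). The 95% interval for Apoe, -0.26 to 0.14, and that for Csf1, -0.19 to 0.22, bound how far they may have moved, and that for Lpl was wider, -0.50 to 0.35. Lgals3, the galactoside-binding protein galectin-3, spanned 2.09 to 3.94 CPM in Cre control and 3.54 to 9.19 in cKO, with log2 fold change 0.66 (SE 0.22, adjusted p = 0.0951); 1 library, cKO F1, held the highest value and the next was 5.47. Of the lysosomal and vesicle genes other than Ctsb, Cd63 gave -0.26 (SE 0.14, adjusted p = 0.310), Ctsz -0.14 (adjusted p = 0.424), Ctsd -0.06 (adjusted p = 0.713) and Cd68 0.23 (adjusted p = 0.405).

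No homeostatic gene passed edgeR, and the defining ones lay at similar levels in both groups. P2ry12 had a median of 15.3 CPM in Cre control and 14.9 in cKO (log2 fold change -0.05, 95% interval -0.24 to 0.13), Cx3cr1 20.6 and 20.2 (-0.06, -0.26 to 0.14), and Csf1r 36.7 and 35.5 (-0.03, -0.19 to 0.13). These 3 intervals leave out a fall of 0.3 or more on the log2 scale. Tmem119 was 11.7 and 13.6 CPM (0.20, adjusted p = 0.335), Siglech, a lectin of microglia, 5.65 and 6.94 with 4 of 6 cKO libraries above all Cre control libraries (0.32, adjusted p = 0.186), and Aif1, the marker Iba1, 2.88 and 2.44 (-0.09, SE 0.18). The complement genes C1qa, C1qb and C1qc gave log2 fold changes of 0.13, 0.15 and 0.18. Itgam, the integrin CD11b, was the homeostatic gene nearest to a call: it spanned 6.09 to 8.07 CPM in Cre control and 4.10 to 6.83 in cKO (log2 fold change -0.39, SE 0.12, adjusted p = 0.0640). Of its cKO libraries 5 of 6 lay below every Cre control library, and M2 lay within the Cre control range. Its adjusted p ranged from 0.0348 to 0.467 over the alternative settings, with a call by DESeq2 and by edgeR without Cre control M1, NDI1 control M2 or cKO M2.

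**Figure D2:**
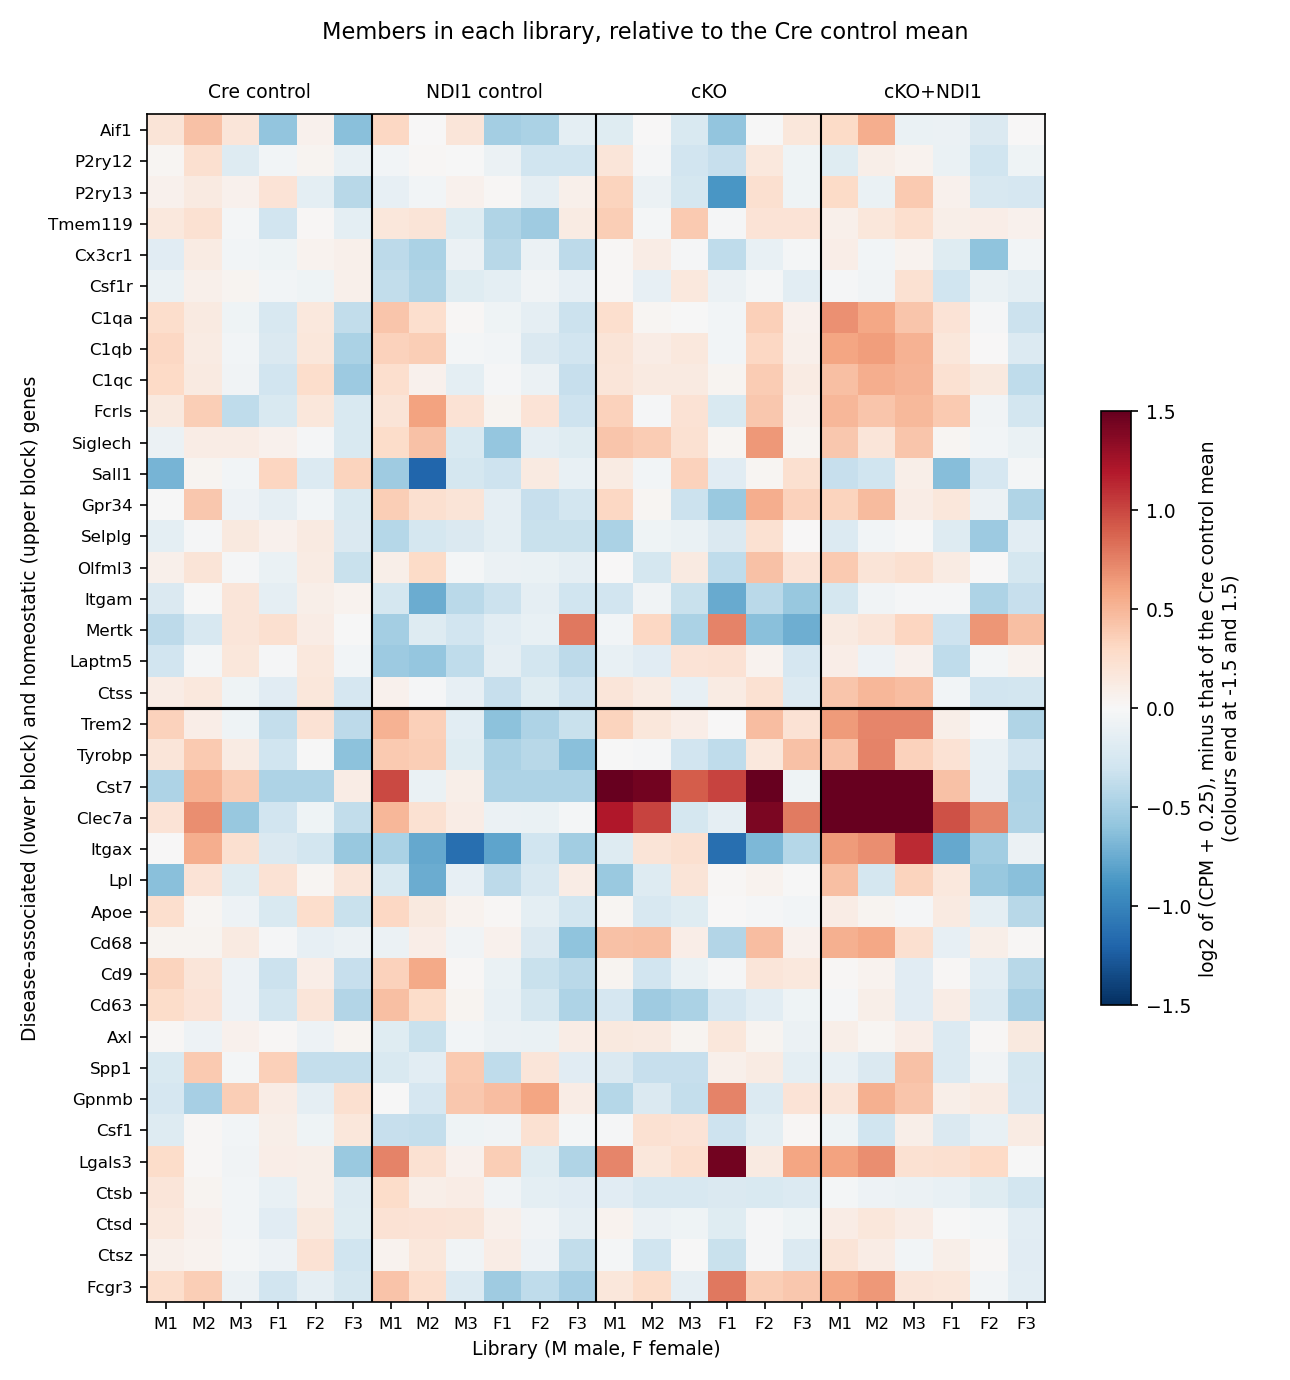
Each row is 1 of the 38 members (homeostatic above the line, disease-associated below it) and each column 1 library, by genotype group; colour gives the log2 of CPM + 0.25 minus that of the Cre control mean. Colours are capped at both ends of the scale. The rows of Cst7 and Clec7a are red in most cKO libraries and reach the darkest red in the 3 cKO+NDI1 males. Cst7 also reaches it in some cKO libraries, so the cap hides differences there. Most homeostatic rows stay near white in every group.

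The second comparison asks what NDI1 changed in knockout mice. In cKO+NDI1 against cKO, 0 of 37 members passed edgeR's quasi-likelihood test with Benjamini-Hochberg adjustment, 0 had an unadjusted p under 0.05 (8.56% of all genes), and DESeq2 and limma-voom also called 0, against 0.209% of all genes called by edgeR. Cst7 had 39 counts in cKO and 87 in cKO+NDI1, and its log2 fold change of 0.53 had an adjusted p of 0.387 or more in every setting tried. Clec7a spanned 0.661 to 4.12 CPM in cKO+NDI1 and 0.789 to 3.08 in cKO (log2 fold change 0.49, SE 0.29, adjusted p = 0.691). The smallest p among the members was that of Ctsz, a lysosomal carboxypeptidase (log2 fold change 0.18, adjusted p = 0.593), followed by Sall1, a transcription factor of microglia that other glia also express (-0.34, adjusted p = 0.632), Clec7a, and Itgam (0.21, adjusted p = 0.705). The medians were 0.08 over the homeostatic and 0.09 over the disease-associated genes, beside -0.01 over all genes. Oligodendrocyte markers were lower in the same comparison, 4 of 6 called, among them Mobp (-0.62) and Mal (-0.67).

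With NDI1 in both groups, the knockout again went with the highest Cst7 and Clec7a, without a call. In cKO+NDI1 against NDI1 control, 0 of 37 members passed edgeR (0% of all genes tested did), 11 had an unadjusted p under 0.05 (4.48% of all genes), DESeq2 called 1, Clec7a, and limma-voom 0. Cst7 counts were 6, 1 and 2 in the NDI1 control males and 0 in each female, and 32, 29 and 22 in the cKO+NDI1 males and 3, 1 and 0 in the females. Each cKO+NDI1 male stood above all controls and each female within their range. The log2 fold change was 2.98 (SE 0.64, p = 9.89e-05, adjusted p = 0.189, edgeR, and exact permutation p = 0.02, adjusted 0.05). Without NDI1 control M1, the control library with most Cst7, it was 3.99. As above, no control library reached the level that the filter on low counts asks of Cst7. Its p-values are therefore no independent support. Clec7a spanned 0.912 to 1.51 CPM in NDI1 control and 0.661 to 4.12 in cKO+NDI1, where 5 of 6 libraries lay above all controls and F3 below them (log2 fold change 1.30, SE 0.30, adjusted p = 0.271, edgeR; exact permutation p = 0.02, adjusted 0.05). The permutation values carry the limit given above, since the 2 genes were picked after their values were seen.

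The homeostatic genes lay slightly higher in this pair of groups. All 19 had a positive log2 fold change, from 0.04 for P2ry12 to 0.35 for Laptm5, a lysosomal membrane protein of immune cells, with a median of 0.19. Split by sex, by contrasts chosen after the values were seen, 18 of 19 were positive in males (median 0.33) and 14 of 19 in females (median 0.08). Of the disease-associated genes 11 of 18 were positive (median 0.09), and of all genes tested 46.9% (median -0.01). The members with the smallest p after Cst7 and Clec7a were Laptm5 (adjusted p = 0.640) and Cd68, a macrophage lysosomal protein (0.39, adjusted p = 0.831), and then Ctss (0.30) and Trem2 (0.43, adjusted p = 0.885). None is a call, and the genes share 12 libraries, so the 19 signs are not 19 independent observations.

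**Figure D3:**
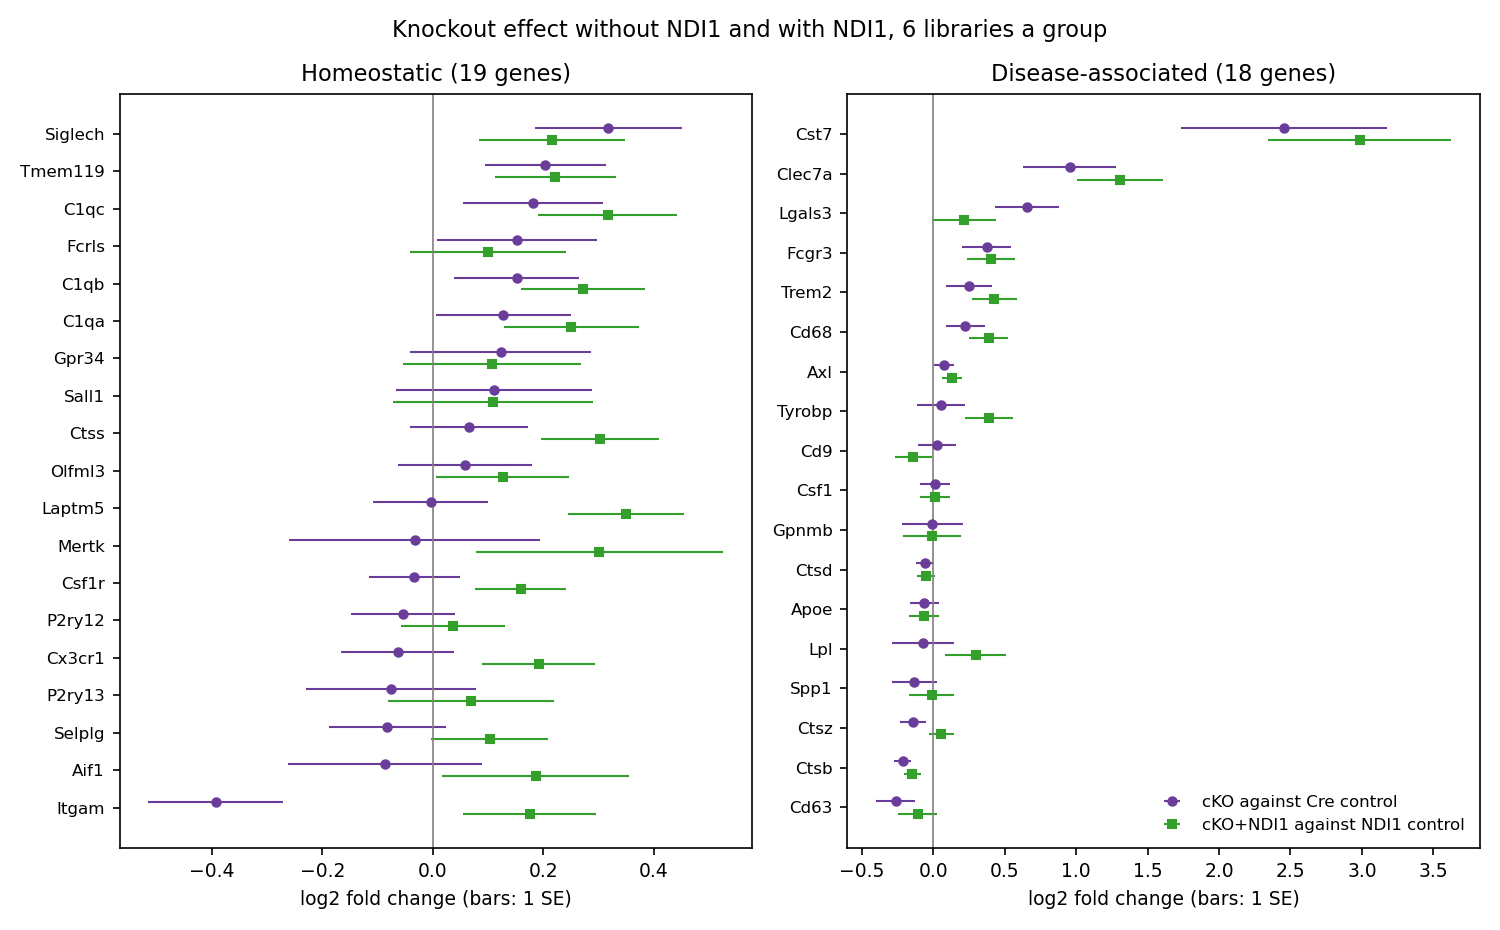
Log2 fold change of each tested member (x axis, point with 1 SE) in cKO against Cre control (circles) and in cKO+NDI1 against NDI1 control (squares), with homeostatic genes on the left and disease-associated genes on the right on a wider axis. Cst7 (2.46 and 2.98) and Clec7a (0.95 and 1.30) stand to the right of all others in both comparisons, and all 19 homeostatic squares lie above 0.

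Against the control without NDI1, cKO+NDI1 had 2 of 37 members called, both higher, beside 1.25% of all genes (0.843% higher), and 6 had an unadjusted p under 0.05 (13.5% of all genes): Clec7a (log2 fold change 1.45, SE 0.30, adjusted p = 0.0234, edgeR; exact permutation p = 0.02, adjusted 0.05) and Cst7 (2.99, SE 0.64, adjusted p = 0.0254, edgeR; exact permutation p = 0.035, adjusted 0.07). The Cst7 call carries the same limit as above, since no control library reached the level that the filter asks, but it was also made without the filter. Clec7a spanned 0.591 to 1.77 CPM in Cre control, and 5 of 6 cKO+NDI1 libraries lay above that range. Both comparisons of a knockout group with Cre control use the same 6 Cre control libraries. The Clec7a call was lost without Cre control M3 or F1 or cKO+NDI1 M2 or M3, with values of 1.29 to 1.64 over all fits without 1 library. That of Cst7 was lost without Cre control M2, M3 or F1 or cKO+NDI1 M1 or M2, with values of 2.61 to 3.28. The smallest p after these was that of C1qb (0.31, adjusted p = 0.189), then C1qa (0.29, adjusted p = 0.272).

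NDI1 without the knockout went with lower values of several homeostatic genes, none of them called by edgeR. In NDI1 control against Cre control 0 of 37 members passed, against 0.00654% of all genes, 5 had an unadjusted p under 0.05 (9.2% of all genes), DESeq2 called 1, Laptm5, and limma-voom 0. Laptm5 spanned 10.6 to 14.6 CPM in NDI1 control and 13.1 to 18.1 in Cre control (log2 fold change -0.39, SE 0.10, adjusted p = 0.212), and 4 of the NDI1 control libraries lay below all Cre control libraries. The others were Itgam (-0.36, adjusted p = 0.341), Cx3cr1 (-0.30, adjusted p = 0.348), Selplg, a P-selectin ligand (-0.29, adjusted p = 0.383), and Csf1r (-0.22, adjusted p = 0.412). Of the 19 homeostatic genes 5 were positive, with a median of -0.07, beside 51.4% of all genes. The same 6 NDI1 control libraries are the controls of the comparison in which all 19 were positive. Cst7 had 9 counts in each of these control groups. Csf1r shares 15.1% of its exon bases with Hmgxb3 on the other strand.

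The test of whether the knockout acted differently with NDI1 called 0 of 37 members (0% of all genes; 2 unadjusted, against 5.18%; DESeq2 and limma-voom 0). Those 2 were Itgam, with a difference of log2 fold changes of 0.57 (SE 0.17, adjusted p = 0.675, edgeR), and Laptm5 (0.35, SE 0.15, adjusted p = 0.901). For Cst7 the difference was 0.53 with a 95% interval of -1.74 to 2.79, and for Clec7a 0.35 with an interval of -0.53 to 1.23. Both intervals include 0 and a difference as large as the Clec7a value of 0.95 in cKO against Cre control.

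Most members had higher values in males, without a call by edgeR. In males against females over all groups, 29 of 37 members were positive with a median log2 fold change of 0.15, beside 49.8% of all genes and a median of 0.00. Members share all libraries and vary together, so neither these signs nor the p-values below are independent observations. By edgeR 0 members were called, against 0.085% of all genes (0.0392% higher and 0.0458% lower), 18 had an unadjusted p under 0.05 (16.9% of all genes), DESeq2 called 3 (C1qb, Cst7 and Trem2) and limma-voom 1 (Cst7). The smallest p values were those of Cst7 (2.10, SE 0.48, adjusted p = 0.133), C1qb (0.33, SE 0.08, adjusted p = 0.177), Trem2 (0.45, SE 0.11, adjusted p = 0.208) and Aif1 (0.43, adjusted p = 0.283). The edgeR call of Cst7 was gained without cKO M3 or without cKO F2. Cst7 passed the filter on low counts only through knockout libraries in which it was high, so its p-values and calls here are no independent support.

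In cKO+NDI1 the sexes stood apart in several members. Of the 87 Cst7 counts in that group 83 came from the 3 males, and Clec7a spanned 3.64 to 4.12 CPM in males and 0.661 to 2.16 in females. Trem2 spanned 15.2 to 16.3 CPM in males and 7.01 to 10.3 in females. C1qb stood at 49.5 ± 1.87 CPM in males and 32.8 ± 4.29 in females (SD, n = 3), and Ctss, a cathepsin of antigen presentation, at 58.9 ± 1.70 and 37.4 ± 3.78. These 5 genes were picked after the values were seen. Their males and females did not overlap in cKO+NDI1, nor in NDI1 control, where the gaps were smaller. In Cre control and in cKO the sexes overlapped in each of these 5 genes. Ctss, for example, spanned 39.2 to 48.6 CPM in cKO males and 37.0 to 50.2 in cKO females. Other members also separated the sexes in cKO+NDI1, among them C1qa (50.3 to 60.3 CPM in males and 29.9 to 43.3 in females). How many of all genes separate in this way was not counted, and with 3 libraries a sex it can occur by chance. In NDI1 control Clec7a spanned 1.10 to 1.51 CPM in males and 0.912 to 0.974 in females, C1qb 32.4 to 42.7 and 26.9 to 32.0, and Ctss 39.3 to 44.9 and 33.6 to 37.7. Other members separated the sexes in NDI1 control and not in cKO+NDI1, among them Cd63 (198.95 to 265.1 CPM in NDI1 control males and 139.9 to 178.4 in females). A contrast of the sexes within this group, chosen after the values were seen, called 1 of 37 members (0.0654% of all genes), Ctss (log2 fold change 0.65, SE 0.12, adjusted p = 0.0378, edgeR), with Cst7 next (3.78, adjusted p = 0.0547). In it 35 of 37 members were positive, with a median of 0.32, beside -0.002 over all genes tested. The members share the same libraries and vary together, so these signs are not independent observations. Within males, by the same kind of contrast, cKO+NDI1 against NDI1 control called 0 of 37 members (0.0261% of all genes; 16 unadjusted, against 14% of all genes), with Cst7 first (2.95, adjusted p = 0.0688, edgeR), and within females it called 0 (0% of all genes; 3 unadjusted, against 2.65%). Cst7 passed the filter on low counts only through knockout libraries, in cKO+NDI1 the 3 males. Its p-values in these contrasts are therefore no independent support. The female with the lowest mean level over both lists, F3, also has the smallest total of all libraries, but for Ctss another female was lowest. The summed monocyte, neutrophil and lymphocyte markers were 5.84 to 6.55 CPM in these males and 18.9, 20.8 and 5.03 in the females.

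Whether the knockout acted differently by sex was tested directly. Without NDI1 the difference (males minus females) called 0 of 37 members (0% of all genes; 6 unadjusted, against 20.6%; DESeq2 and limma-voom 0). The smallest p was that of Fcgr3 (-0.86, SE 0.25, adjusted p = 0.210), with Tyrobp next (-0.77, adjusted p = 0.210). With NDI1 it also called 0 by edgeR (0% of all genes; 3 unadjusted, against 11.3%), the smallest p being that of Csf1r (0.46, SE 0.14, adjusted p = 0.441). In females alone, by a contrast within the model of all libraries, the knockout without NDI1 called 2 members, Fcgr3 higher (0.78, SE 0.18, adjusted p = 0.0177) and Itgam lower (-0.60, SE 0.16, adjusted p = 0.0371), beside 4.86% of all genes. In males it called 0 (0.569% of all genes; 3 unadjusted, against 18.3%).

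Members varied together across libraries in blocks. The measure is Pearson's r between residuals of log2 CPM, after genotype group and sex were fitted, over the 24 libraries, and it is given as a description, since the libraries also share depth and RNA composition. The C1q genes formed the tightest block of microglial genes (C1qa with C1qb 0.94, C1qb with C1qc 0.92, C1qa with C1qc 0.90), and Trem2 joined them (0.87 with C1qa and 0.87 with C1qb). A second block held genes that other cells make too: Cd9 with Cd63 0.93, Apoe with Ctsb 0.92, Apoe with Cd63 0.92. Against the mean residual of 9 core homeostatic genes (P2ry12, Tmem119, Cx3cr1, Csf1r, C1qa, C1qb, C1qc, Siglech and Fcrls, leaving out the gene itself), r was highest for Olfml3 (0.84), Trem2 (0.84), C1qb (0.82), C1qa (0.82) and Fcrls (0.80). Clec7a reached 0.77 and Cst7 0.46. At the other end stood Csf1r (-0.17), Cx3cr1 (-0.01), the transcription factor gene Sall1 (-0.24), Axl (-0.49) and the phagocytic receptor gene Mertk (-0.50). The median r over the 171 pairs of homeostatic genes was 0.19, and over the 342 pairs of a homeostatic with a disease-associated gene also 0.19, so the 2 lists did not form separate blocks.

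The likeness went with transcript length. Over 15213 genes tested, Spearman's rho between r with the core and merged exon length was -0.59, and over the 37 members -0.41. When all genes were ranked by length into 4 equal classes, the median r was 0.40 in the shortest class and -0.49 in the longest. Among genes outside the list, predicted genes left out, the 10 most alike included Smagp (0.86), Pld4 (0.85), Fgd2, Srgn, Lbh, H2-M3, Tmem88, Dph1 and Acvrl1, with a median length of 2443 bases against 4334 for all genes tested.

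**Figure D4:**
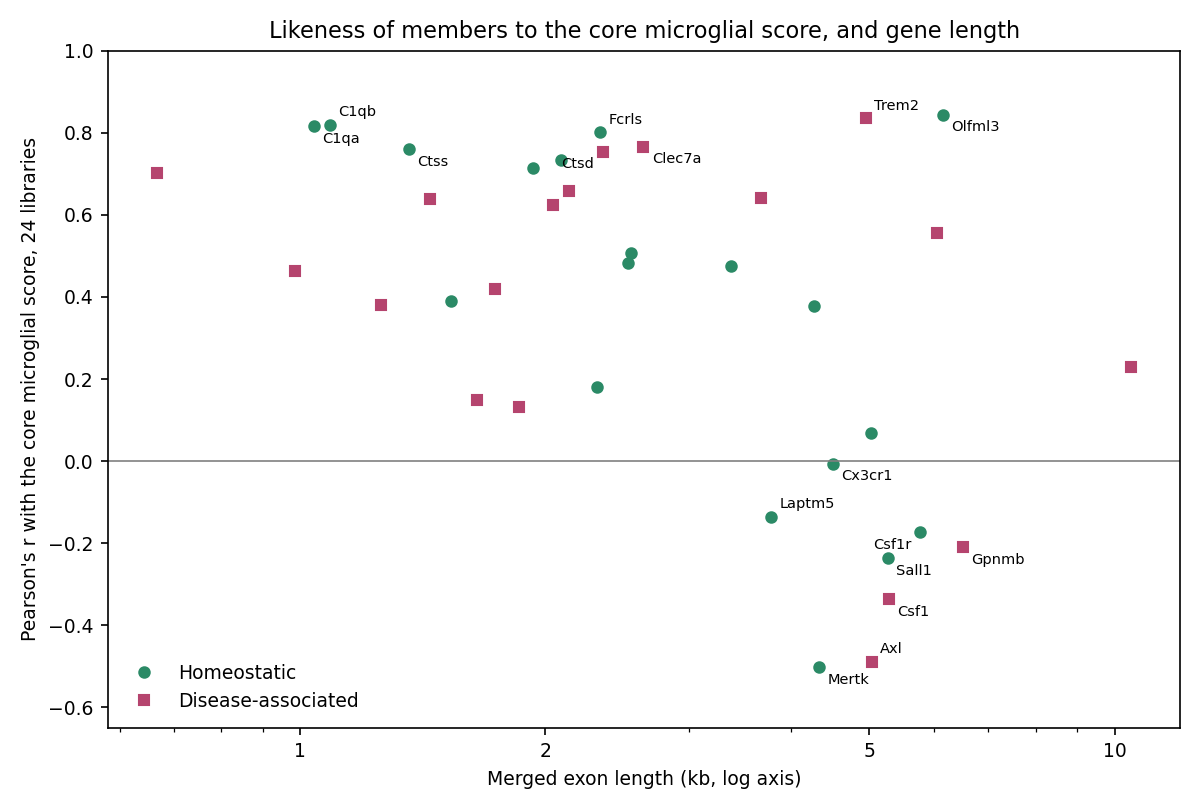
Pearson's r of each tested member with the core microglial score over 24 libraries (y axis) against merged exon length (x axis, kb, log scale); circles are homeostatic and squares disease-associated genes. Short genes such as C1qa and C1qb sit near 0.82 and the genes below 0 run from 3788 bases (Laptm5) to 6514 (Gpnmb), while the long genes Trem2 and Olfml3 reach 0.84.

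Genes around these receptors were read from lists beside the members, chosen with earlier results of these data known. Counts of calls in these lists are therefore no independent support. Of 15 ligands and partners, 2 rose in cKO against Cre control, beside 3.06% of all genes called higher: Tgfb1, the cytokine that keeps microglia homeostatic, from 8.11 ± 1.15 to 12.5 ± 1.79 CPM (SD, n = 6, log2 fold change 0.63, adjusted p = 0.00689, edgeR), with no overlap between the groups, and Gas6, a ligand of Axl and Mertk (0.22, adjusted p = 0.0271). Among complement genes other than C1q, C4b rose from 6.45 ± 1.61 to 11.4 ± 1.83 CPM (0.81, adjusted p = 0.0101). Of 9 inflammatory genes tested of 18 listed, 2 rose (3.06% of all genes did), the chemokine Cxcl10 (2.21, adjusted p = 0.0111) and Ptgs2 (1.41, adjusted p = 0.0355), and 1 library, with 7.75 CPM, held the highest Ptgs2 in cKO, where the median was 1.34; the call was not tested without it. All of these can be made by astrocytes, endothelial cells or neurons as well.

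The lists closest to microglia had no call in cKO against Cre control by edgeR, where 4.87% of all genes were called and 18.5% had an unadjusted p under 0.05. Those were 11 genes of TREM2 and Fc receptor signalling (1 unadjusted; the smallest p were those of Fcgr2b, 0.45, and Pik3cg, 0.25), 10 microglial transcription factors (2 unadjusted, Cebpa 0.33 and Bhlhe41 0.18), 19 other surface and enzyme genes (1 unadjusted, Tlr2 0.52, with P2ry6 0.35 next) and 17 lysosomal genes (5 unadjusted, Glb1 -0.25 and Psap -0.13 first). In cKO+NDI1 against NDI1 control none of these lists had a call either, and 0% of all genes tested did. There 11 of 11 TREM2 and Fc signalling genes were positive (46.9% of all genes), with a median of 0.35 and 3 at an unadjusted p under 0.05 (4.48% of all genes). These genes share the same libraries, so their signs are not independent observations. The lysosomal genes went the other way there, 3 of 17 positive with a median of -0.08, beside -0.01 over all genes.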

How the data were processed

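Whole cerebellum RNA of 24 mice was sequenced after polyA selection with an unstranded kit, per the labels' protocols. The deposited file holds raw HTSeq counts per gene (43430 genes), made with bcl2fastq, Trimmomatic and STAR on mm10, per the submitters' processing notes; versions are not given in the sources used here. 0 per-library columns were left unused. Groups and sexes come from the labels. The p-values set differences between groups against the spread between these mice.

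edgeR 4.0.16 (R 4.3.3, limma 3.58.1) was fitted to all libraries with group and sex (TMM, filterByExpr, robust quasi-likelihood), with Benjamini-Hochberg over 15300 genes and a threshold of 0.05. CPM use TMM library sizes. Levels per kb use merged exons of GENCODE M21, since the deposited length exceeds the gene's span in 1982 genes. The fit was tested on simulated data. Alternatives included DESeq2 1.42.0, limma-voom and sva 3.50.0. The members and lists were chosen with earlier results of these data known. Named are members called in any comparison, a set of fixed members and the 4 with the smallest p in each comparison. Fcgr3 and Itgax values by library, Lgals3, Siglech, C1qc and the sex contrasts were named after their values were seen. The permutation tests were also added then, for Cst7 and Clec7a alone, and their adjustment covers only those 10 tests. Replicates of a group differed by more than counting noise in all 60 pairs (chi-square over genes at least 4.67 times its degrees of freedom). Some genes of the companion lists are not reported here.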

Additional observations from a re-analysis of the deposited data

Results flagged for a closer look

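Of 152 groups of 6 libraries examined (38 members in 4 groups), 5 held a library whose gap to its neighbour was more than 0.625 of the group's range, and chance alone sets apart about 1 in 20 such groups. Gpr34, a lysophospholipid receptor, stood at 11.5 CPM in Cre control M2, with the next library at 8.54. Mertk stood at 32.7 CPM in NDI1 control F3, with the next at 17.3. Cst7 stood at 0.430 CPM in NDI1 control M1, with the next at 0.116, values that rest on 6 and 2 counts. Spp1 stood at 55.8 CPM in cKO+NDI1 M3, with the next at 39.7. Lgals3 stood at 9.19 CPM in cKO F1, with the next at 5.47, and this library also held the highest Fcgr3 and Gpnmb of its group.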

How the results depend on the processing

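No call changed sign, and of the single-gene values under other settings 53 lost a call, 15 gained one, 344 changed sign without a call on either side, and 7460 kept direction and call. The member counts that follow are given without the share of all genes called under the same setting. In cKO against Cre control, 2 members called became 5 with DESeq2 (Clec7a, Cst7, Ctsb, Itgam and Lgals3), 1 with library size alone, with at least 1 CPM in 6 libraries, with 1 surrogate variable or in females alone (Fcgr3), and 0 with no filter, with the 2 groups alone, with no sex term, in males alone, with counts thinned to the smallest total, and without cKO F1 and cKO+NDI1 F3 together, a setting chosen after seeing the data. In cKO+NDI1 against Cre control, 2 became 1 with DESeq2, with at least 1 CPM in 6 libraries, with the 2 groups alone, with no sex term or in males alone, and 0 in females alone or thinned. Other counts moved from 0 to 1 with DESeq2 in cKO+NDI1 against NDI1 control (Clec7a) and in NDI1 control against Cre control (Laptm5), and from 0 to 3 with DESeq2 and 1 with limma-voom in male against female. At 1 CPM in 6 libraries Cst7 is not tested; the cause of the other changes was not tested. Leaving out each library in turn gave 0 to 2 members called in cKO against Cre control, 0 to 2 in cKO+NDI1 against Cre control, 0 to 1 in male against female and 0 in the rest. With the replicate block in place of sex, 2 members were called in cKO against Cre control (Ctsb and Lgals3, not Cst7) and 2 in cKO+NDI1 against Cre control. The labels do not say whether same-numbered libraries share more than a number. For 1 of the 6 codes, M3, they deviated together in every pair (r 0.18 to 0.394), and these correlations cannot tell what the codes mean. Cst7 rests on 9 to 87 counts a group, so differences of a few counts are not detectable at this depth.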
